A study of Saccharomyces cerevisiae with 8 samples.

Results

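The nuclear genes for the respiratory chain of budding yeast were followed across 8 arrays of cells that differ in RNT1, the gene of the nuclear endonuclease RNase III. The group holds 39 of the 5656 genes that a probe set of the platform names alone. Members were taken by gene symbol: 4 subunits of complex II, 9 of complex III, 2 forms of cytochrome c, 9 subunits of complex IV, 12 of complex V and 3 NADH dehydrogenases. They are read by 41 probe sets, of which the brightest represents each gene, and 38 of the 39 were above background, the brightest non-yeast control probe set of an array, on all 8 arrays. NDE2 was the exception. Signals are given after quantile normalization between arrays, changes are differences of log2(signal + 16), and a gene is said to have risen or fallen, or to be called, at an adjusted p under 0.05.

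Total RNA was taken from exponentially growing Saccharomyces cerevisiae of 3 strains at 26 C and 37 C. At 26 C wild type and the strain labelled rnt1d had 2 arrays each, called biological replicates in the labels, and the strain labelled rnt1ts had 1. At 37 C each of the 3 strains had 1 array. The labels do not spell out the alleles or the parent strain, and the sources give complete medium with or without leucine in one place and rich medium in another, without tying a medium to an array.

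The respiratory chain passes electrons from NADH and succinate through ubiquinone, complex III, cytochrome c and complex IV to oxygen, and complex V uses the resulting proton gradient to make ATP. Budding yeast has no proton-pumping complex I and oxidises NADH with single-subunit enzymes instead. Complexes III, IV and V are built from subunits of both genomes: a few core proteins come from mitochondrial DNA and the rest, described here, from the nucleus. In glucose, yeast ferments and keeps many of these nuclear genes low. The Hap2/3/4/5 complex raises their transcription when respiration is needed.

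The RNT1 transcript was examined as a check of the labels. The RNT1 signal was 181 and 149 in wild type at 26 C, 1.31 and 2.03 in rnt1d at 26 C, 39.8 in rnt1ts at 26 C, 269 in wild type at 37 C, and 71.4 and 1.26 on the arrays labelled rnt1d and rnt1ts at 37 C. Neither rnt1d array at 26 C had it above background, and it fell at least 20.6-fold there (adjusted p = 0.000939 by limma). At 37 C it went against the labels, being present on the array labelled rnt1d and not above background on the one labelled rnt1ts. No array was moved, and results at 37 C are given by label.

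The arrays also differed in ways that the groups do not explain. Median deposited signals ran from 31.04 to 69.5. Bacterial and phage hybridisation controls were bright on replicate 2 of wild type and of rnt1d at 26 C (medians of 59.8 and 31.5) and dim on the other arrays (1.64 to 4.83), so at 26 C the replicate number coincides with these spiked controls. The ratio of 3' to 5' actin probe sets, a sign of RNA integrity, ran from 1.49 to 2.15 and was highest on those 2 arrays. The same ratio for TBP ran from 1.80 to 4.15 and did not single them out, with 3.54 on the array labelled rnt1d at 37 C and 3.36 on wild type replicate 2 at 26 C. Results are therefore also given with a term that separates the 2 arrays with bright controls from the rest, chosen after the values were seen and called the control term here.

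At 26 C, 12 of the 39 members were lower in rnt1d than in wild type and 1 was higher, the cytochrome c isoform gene CYC7. Complex V had 6 of 12 genes lower and complex III 4 of 9, with 1 of 4 in complex II, 1 of 9 in complex IV and 0 of 3 NADH dehydrogenase genes. With the settings used here, the other 26 members were called in none of the comparisons below, though some were under alternative settings (among them filters on dim probe sets, the replicate block, the control term, or leaving out the 2 mutant arrays at 37 C). COX4 of complex IV showed the largest fall, 3.64-fold. The median log2 change of all members was -0.60, against -0.03 over all 9275 probe sets. Medians were -0.87 in complex V, -0.67 in complex III, -0.47 in complex II, -0.36 in complex IV and -0.04 in the NADH dehydrogenases, and 1.18 over the pair of cytochrome c genes. In the limma fit across all probe sets, 1.95% were called lower and 3.54% higher at an adjusted p under 0.05. At an unadjusted p under 0.05 the members numbered 26. No share of all probe sets is given at that threshold, here or below, so the unadjusted counts are descriptions only.

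**Figure D1:**
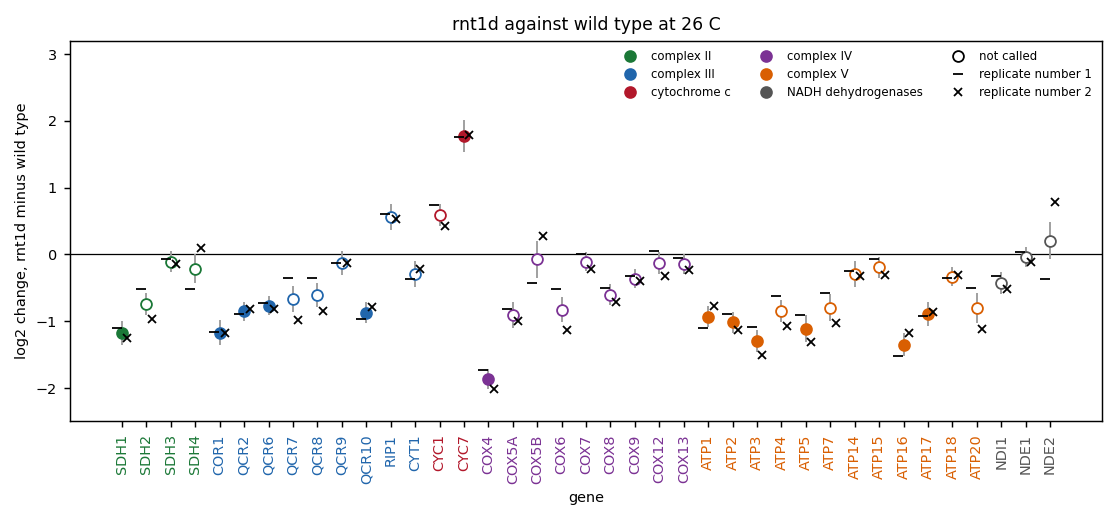
Log2 change of each member in rnt1d against wild type at 26 C, grouped by complex. Filled points passed the limma test and open points did not, bars are standard errors, and the dash and the cross give the change within replicate number 1 and number 2. The 12 filled points of genes lower in rnt1d lie between -1.86 and -0.77, and CYC7 is the filled point of a gene higher in rnt1d, at 1.78.

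The direction was shared more widely than the calls. Of the 39 members 35 had a log2 change below 0, as did 5047 of all 9275 probe sets. Both rnt1d arrays were below both wild type arrays for 27 members (29.2% of all probe sets) and above both for 3 (25.1%), with overlap for 9. The sign was the same within replicate number 1 and within number 2 for 33, without a share of all probe sets to set beside it. Across the 39 genes the 2 sets of changes had a Pearson r of 0.85, and over all 5656 genes 0.82. The members' changes had a Spearman rho of -0.26 with coding length and 0.18 with mean signal, given as a description across genes. With the control term, which leaves 1 residual degree of freedom, 21 members were lower and 3 higher (6.91% and 8.45% of all probe sets). These include all 13 called without it.

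The count of calls depended on scale and on single arrays, of which there are few. On the deposited scale no member was called (0 of 39), and none was without wild type replicate 1 or without wild type replicate 2. Without rnt1d replicate 1 the count was 6, and without rnt1d replicate 2 it was 2, COX4 and ATP16. In RNA from whole cultures, less transcript per cell and fewer cells holding it cannot be told apart.

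Complex V, the ATP synthase, had the most members lower. Its catalytic sector, the head and its central stalk, is made of the products of ATP1 (alpha), ATP2 (beta), ATP3 (gamma), ATP16 (delta) and ATP15 (epsilon). Of these 5 genes 4 fell. The ATP16 signal was 533 and 543 in wild type at 26 C, 176 and 231 in rnt1d at 26 C, 612 in rnt1ts at 26 C, 399.8 in wild type at 37 C, and 386 and 166 on the arrays labelled rnt1d and rnt1ts at 37 C. Both rnt1d arrays and the array labelled rnt1ts at 37 C were the low ones, and rnt1d did not overlap wild type. ATP16 was 2.54-fold lower in rnt1d than in wild type at 26 C (log2 change -1.35, SE 0.18, limma adjusted p = 0.0181). ATP3 read 821 and 909 on the wild type arrays and 377 and 309 on the rnt1d arrays at 26 C, with 1042 on the rnt1ts array. At 37 C ATP3 read 529 in wild type, 702 under the rnt1d label and 259 under the rnt1ts label. The gamma subunit gene was thus highest on rnt1ts at 26 C and lowest on the array labelled rnt1ts at 37 C. Its log2 change in rnt1d at 26 C was -1.30 (SE 0.17, limma adjusted p = 0.0161).

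ATP2 signals at 26 C were 605 and 595 (wild type), 317 and 264 (rnt1d) and 865 (rnt1ts), and those at 37 C were 418 (wild type), 582 (labelled rnt1d) and 293 (labelled rnt1ts). The beta subunit gene, which encodes the nucleotide-binding catalytic subunit, was low on the same 3 arrays, with no overlap between rnt1d and wild type at 26 C. ATP1 read 799 and 734 on the wild type arrays and 365 and 426 on the rnt1d arrays at 26 C, with 1087 on the rnt1ts array. At 37 C ATP1 read 655 in wild type, 705 under the rnt1d label and 344 under the rnt1ts label. The alpha subunit gene was also low on these 3 arrays, and rnt1ts at 26 C was its highest. The log2 changes in rnt1d were -1.01 for ATP2 (SE 0.16, limma adjusted p = 0.0284) and -0.93 for ATP1 (SE 0.15, limma adjusted p = 0.033). The epsilon subunit gene ATP15, at 536 and 645 on the wild type arrays and 511 and 516 on the rnt1d arrays at 26 C, did not pass the test (log2 change -0.19, limma adjusted p = 0.524).

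The remaining complex V genes encode the peripheral stalk and membrane parts. The ATP5 signal was 222 and 313 in wild type at 26 C, 111 and 117 in rnt1d at 26 C, 320.1 in rnt1ts at 26 C, 150.4 in wild type at 37 C, and 154 and 87.4 on the arrays labelled rnt1d and rnt1ts at 37 C. ATP5 encodes OSCP, the subunit that joins the stalk to the head, and was low on both rnt1d arrays and lowest on the array labelled rnt1ts at 37 C. Its log2 change in rnt1d at 26 C was -1.11 (limma adjusted p = 0.0407). ATP17 signals at 26 C were 186 and 216 (wild type), 90.9 and 111 (rnt1d) and 322 (rnt1ts), and those at 37 C were 153 (wild type), 238 (labelled rnt1d) and 118 (labelled rnt1ts). ATP17 encodes subunit f of the membrane sector and was highest on rnt1ts at 26 C, with both rnt1d arrays below every wild type array (log2 change -0.89, limma adjusted p = 0.0482). With a pseudocount of 64 in place of 16 ATP17 was no longer called. ATP4 read 382 and 462 on the wild type arrays and 242 and 213 on the rnt1d arrays at 26 C, with 485 on the rnt1ts array. At 37 C ATP4 read 283 in wild type, 402 under the rnt1d label and 217 under the rnt1ts label. ATP4, the long stalk subunit b, had both rnt1d arrays below every wild type array and missed the threshold narrowly. The stalk genes ATP4 and ATP7 had log2 changes of -0.85 and -0.79 and did not pass (limma adjusted p = 0.0501 and 0.0899). The others of this part, ATP14, ATP18 and ATP20, had changes between -0.80 and -0.29, none called.

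Complex III, the cytochrome bc1 complex, had 4 members lower, 2 of them the large core proteins. The COR1 signal was 206 and 251 in wild type at 26 C, 83.8 and 102 in rnt1d at 26 C, 299 in rnt1ts at 26 C, 133 in wild type at 37 C, and 204 and 101 on the arrays labelled rnt1d and rnt1ts at 37 C. Both rnt1d arrays lay below all other arrays apart from the one labelled rnt1ts at 37 C. COR1 was 2.25-fold lower in rnt1d at 26 C (log2 change -1.17, SE 0.18, limma adjusted p = 0.0286). QCR2 signals at 26 C were 529 and 503 (wild type), 278 and 279 (rnt1d) and 705 (rnt1ts), and those at 37 C were 323 (wild type), 571 (labelled rnt1d) and 313 (labelled rnt1ts). The second core protein gene, QCR2, was low on the same 3 arrays and on wild type at 37 C, and its log2 change in rnt1d was -0.85 (SE 0.14, limma adjusted p = 0.0329).

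QCR6 read 537 and 586 on the wild type arrays and 318 and 327 on the rnt1d arrays at 26 C, with 717 on the rnt1ts array. At 37 C QCR6 read 442 in wild type, 834 under the rnt1d label and 331 under the rnt1ts label. QCR6, an acidic subunit next to cytochrome c1, was highest on the array labelled rnt1d at 37 C. QCR10 signals at 26 C were 260.1 and 263 (wild type), 125 and 146 (rnt1d) and 308 (rnt1ts), and those at 37 C were 199 (wild type), 378 (labelled rnt1d) and 106 (labelled rnt1ts). The small subunit gene QCR10 was likewise highest there and lowest on the array labelled rnt1ts at 37 C. The log2 changes in rnt1d at 26 C were -0.77 for QCR6 (limma adjusted p = 0.0414) and -0.87 for QCR10 (limma adjusted p = 0.0389), without overlap with wild type. QCR7, QCR8, QCR9 and the cytochrome c1 gene CYT1 had changes of -0.67, -0.60, -0.13 and -0.30 and did not pass. A second probe set for QCR8 gave -0.35 and one for ATP14 gave -0.36, neither called.

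RIP1, the Rieske iron-sulphur protein of complex III, differed from its 8 partners in sign. The RIP1 signal was 818 and 667 in wild type at 26 C, 1249 and 970.2 in rnt1d at 26 C, 1047 in rnt1ts at 26 C, 468 in wild type at 37 C, and 898 and 1053 on the arrays labelled rnt1d and rnt1ts at 37 C. Both rnt1d arrays were above both wild type arrays at 26 C, while the wild type array at 37 C was the lowest of the 8. The log2 change in rnt1d was 0.57 (SE 0.19) and did not pass (limma adjusted p = 0.153), though it was called higher with the control term. A separate control probe set for RIP1 gave 270.3 and 306 on the wild type arrays and 489 and 314 on the rnt1d arrays at 26 C. The log2 difference on that control was 0.82 within replicate number 1 and 0.04 within number 2.

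**Figure D2:**
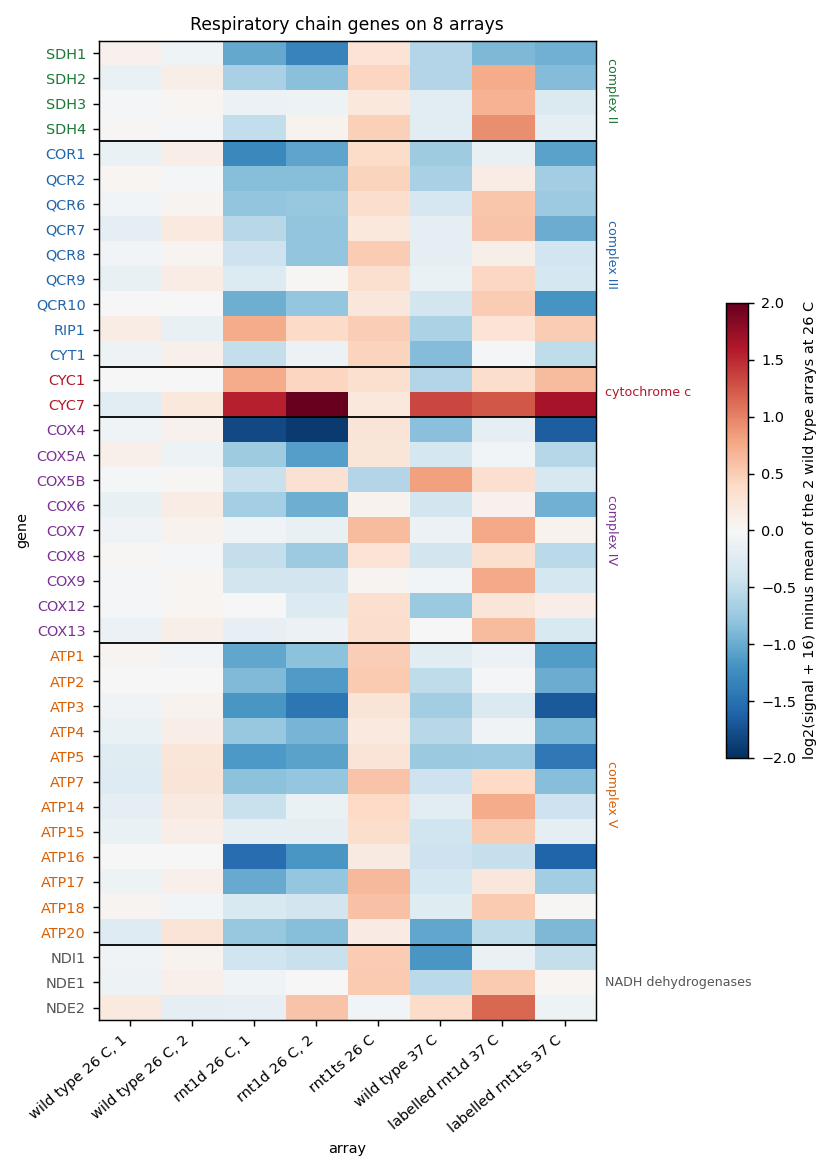
Heat map of the 39 members (by complex) on the 8 arrays, coloured by log2(signal + 16) minus the mean of wild type at 26 C and capped at 2 in either direction. Complexes II to V are mostly below 0 on both rnt1d arrays at 26 C and on the array labelled rnt1ts at 37 C. On rnt1ts at 26 C they are mostly above 0, while CYC1, CYC7 and RIP1 are above 0 on both rnt1d arrays.

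Complex II, succinate dehydrogenase, links the chain to the TCA cycle. The SDH1 signal was 353 and 314 in wild type at 26 C, 156 and 122 in rnt1d at 26 C, 404 in rnt1ts at 26 C, 216 in wild type at 37 C, and 171 and 164 on the arrays labelled rnt1d and rnt1ts at 37 C. SDH1, the flavoprotein that oxidises succinate, was low on both rnt1d arrays and on all 3 arrays at 37 C, and it was 2.26-fold lower in rnt1d at 26 C (log2 change -1.18, SE 0.18, limma adjusted p = 0.0271). The iron-sulphur subunit gene SDH2 read 384 and 462 on the wild type arrays and 263 and 229.8 on the rnt1d arrays at 26 C, without overlap, and did not pass (log2 change -0.74, limma adjusted p = 0.0649). The membrane anchor genes SDH3 and SDH4 had changes of -0.11 and -0.21, and for SDH4 the strains overlapped.

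Complex IV, cytochrome c oxidase, held the gene that fell most and others with log2 changes near 0. The COX4 signal was 588 and 664 in wild type at 26 C, 167 and 153 in rnt1d at 26 C, 749 in rnt1ts at 26 C, 342 in wild type at 37 C, and 551 and 188 on the arrays labelled rnt1d and rnt1ts at 37 C. COX4 encodes a zinc-binding subunit on the matrix side, and rnt1d and the array labelled rnt1ts at 37 C were low by a margin wider than the gap between replicates. COX4 averaged 626 ± 53.5 in wild type and 160.0 ± 9.77 in rnt1d at 26 C (SD, n = 2), a log2 change of -1.86 (SE 0.15, limma adjusted p = 0.00417). COX6 and COX8 had changes of -0.82 and -0.60, without overlap, and did not pass (limma adjusted p = 0.0648 and 0.0863). COX9 was at -0.36, and COX7, COX12 and COX13 were between -0.14 and -0.11 with overlapping strains. COX4 was therefore the only complex IV gene of these 9 called in rnt1d at 26 C.

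Subunit V of complex IV comes from either of 2 genes, COX5A, used in air, and COX5B, its low-oxygen form. COX5A read 715 and 616 on the wild type arrays and 398 and 301 on the rnt1d arrays at 26 C, with 786 on the rnt1ts array. At 37 C COX5A read 518 in wild type, 637 under the rnt1d label and 439.9 under the rnt1ts label. COX5A was below wild type on both rnt1d arrays and just missed the threshold (log2 change -0.91, SE 0.19, limma adjusted p = 0.0528). COX5B signals at 26 C were 101 and 106 (wild type), 71.4 and 132 (rnt1d) and 63.5 (rnt1ts), and those at 37 C were 194 (wild type), 133 (labelled rnt1d) and 79.3 (labelled rnt1ts). COX5B was highest on the wild type array at 37 C, and rnt1d overlapped wild type at 26 C (log2 change -0.07, limma adjusted p = 0.91). Its log2 change was -0.42 within replicate number 1 and 0.28 within number 2.

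Cytochrome c, the soluble carrier between complexes III and IV, was the one step at which both genes were above wild type in rnt1d. The CYC7 signal was 35.5 and 52.5 in wild type at 26 C, 159 and 219.9 in rnt1d at 26 C, 52.6 in rnt1ts at 26 C, 133 in wild type at 37 C, and 124 and 170.2 on the arrays labelled rnt1d and rnt1ts at 37 C. CYC7, the isoform known for expression at low oxygen, was low on the 2 wild type arrays and on rnt1ts at 26 C and high on the other 5. It was 3.42-fold higher in rnt1d than in wild type at 26 C (log2 change 1.78, SE 0.24, limma adjusted p = 0.0189). CYC1 signals at 26 C were 1109 and 1104 (wild type), 1862 and 1495 (rnt1d) and 1392 (rnt1ts), and those at 37 C were 735 (wild type), 1421 (labelled rnt1d) and 1730.0 (labelled rnt1ts). The major isoform gene CYC1 was above both wild type arrays on both rnt1d arrays, with a log2 change of 0.59 (SE 0.16) that did not pass (limma adjusted p = 0.104). With the control term CYC1 was called higher. Whether the probe sets of these similar genes take up each other's transcript was not tested.

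**Figure D3:**
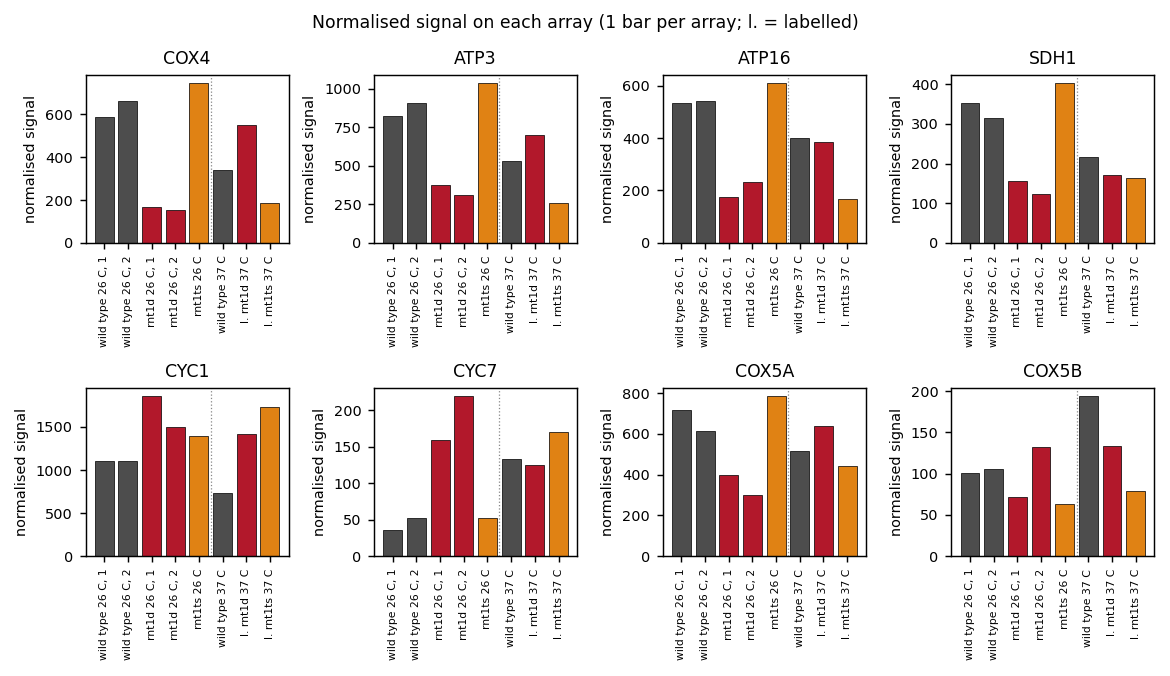
Normalised signal (linear scale from 0) of COX4, ATP3, ATP16, SDH1, CYC1, CYC7, COX5A and COX5B, with 1 bar per array. COX4, ATP3 and ATP16 are low on both rnt1d arrays at 26 C and on the array labelled rnt1ts at 37 C. CYC7 is low on wild type and rnt1ts at 26 C.

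The NADH dehydrogenases feed the chain from the matrix (NDI1) and from the cytosol (NDE1 and NDE2). The NDE1 signal was 827 and 961 in wild type at 26 C, 851 and 887 in rnt1d at 26 C, 1288 in rnt1ts at 26 C, 606 in wild type at 37 C, and 1296 and 914 on the arrays labelled rnt1d and rnt1ts at 37 C. NDE1 in rnt1d overlapped wild type at 26 C, and the wild type array at 37 C was the lowest (log2 change in rnt1d -0.04, limma adjusted p = 0.912). NDE2 signals at 26 C were 8.55 and 2.53 (wild type), 2.97 and 15.8 (rnt1d) and 4.46 (rnt1ts), and those at 37 C were 11.6 (wild type), 31.1 (labelled rnt1d) and 3.96 (labelled rnt1ts). NDE2 was above background on 3 of the 8 arrays, rnt1d replicate 2 at 26 C, wild type at 37 C and most clearly the array labelled rnt1d at 37 C. Wild type at 26 C was not above it, so no fold is given (limma adjusted p = 0.706 for rnt1d at 26 C). NDI1 read 119 and 134 on the wild type arrays and 92.3 and 88.7 on the rnt1d arrays at 26 C, without overlap, and did not pass (log2 change -0.42, limma adjusted p = 0.201).

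In rnt1ts at 26 C, which had 1 array and where RNT1 itself was 39.8 against 181 and 149, no member was called against wild type (limma, 0 of 39, with 8 at an unadjusted p under 0.05 and 0.787% of all probe sets called). The differences leaned the other way from rnt1d. Of the 39 members, 37 were above the wild type mean (49.2% of all probe sets), with a median log2 difference of 0.33. There 18 members had their highest signal of the 8 arrays, a count without a share of all probe sets to set beside it. By complex the medians were 0.38 in complex V, 0.37 in complex III, 0.35 in complex II and 0.26 in complex IV. The largest differences were 0.65 for ATP17 and 0.63 for COX7, and the lowest adjusted p among members was 0.368. COX5B at -0.59 and NDE2, above background in neither group, were the members below 0. A single array gives no spread of its own, so this lean is a description.

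Set directly against rnt1ts at 26 C, rnt1d was lower for 9 members and higher for 0 (limma, against 0.765% and 0.809% of all probe sets). The 9 were COX4, COR1, QCR2, SDH1, ATP1, ATP2, ATP3, ATP16 and ATP17, each also called against wild type, with which this comparison shares the rnt1d arrays. COX4 differed most, by -2.12 on the log2 scale (SE 0.19, adjusted p = 0.00926). The smallest difference among the 9 was -1.29 for QCR2 (adjusted p = 0.0336). The median over all 39 members was -0.92. The count fell to 0 on the deposited scale and to 0 or 1 when any 1 of the 4 replicated arrays was left out, and with the control term 19 members were lower and 1, CYC7, higher (2.05% and 2.57% of all probe sets).

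Wild type at 37 C was compared with wild type at 26 C to see the members' response to temperature. No member passed, nor did any of the 9275 probe sets (limma, 0%), and 17 members had an unadjusted p under 0.05. Of the 39 members, 35 were below 0 (52.8% of all probe sets), with a median log2 difference of -0.37. ATP20 signals at 26 C were 97.3 and 147 (wild type), 64.3 and 59.6 (rnt1d) and 136 (rnt1ts), and those at 37 C were 50.2 (wild type), 79.7 (labelled rnt1d) and 57.1 (labelled rnt1ts). ATP20, subunit g of complex V, was lowest on wild type at 37 C, followed by the array labelled rnt1ts at 37 C and both rnt1d arrays. NDI1 at -1.17 and ATP20 at -1.04 were lower by over 2-fold (0.593% of all probe sets), and CYC7 was higher by over 2-fold (1.08%). The members above 0 were CYC7 at 1.33, COX5B at 0.81, COX13 at 0.01 and NDE2, which was not above background in wild type at 26 C, so that both low-oxygen isoform genes, CYC7 and COX5B, had their differences above 0.

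At 37 C the 2 mutant labels leaned in opposite directions, and with 1 array a label there is no test between them. On the array labelled rnt1d, where RNT1 was present, 35 of the 39 members were above wild type at 37 C (49.3% of all probe sets) with a median log2 difference of 0.75. The 1 wild type array used as the reference here was itself below wild type at 26 C for 35 members (median log2 difference -0.37). Differences from it are therefore not rises over wild type at 26 C. SDH2 signals at 26 C were 384 and 462 (wild type), 263 and 229.8 (rnt1d) and 569.9 (rnt1ts), and those at 37 C were 275 (wild type), 714 (labelled rnt1d) and 224 (labelled rnt1ts). SDH4 read 438 and 423 on the wild type arrays and 301 and 455 on the rnt1d arrays at 26 C, with 603 on the rnt1ts array. At 37 C SDH4 read 371 in wild type, 838 under the rnt1d label and 372 under the rnt1ts label. These succinate dehydrogenase genes were each highest of the 8 arrays under the rnt1d label at 37 C. NDI1 signals at 26 C were 119 and 134 (wild type), 92.3 and 88.7 (rnt1d) and 187 (rnt1ts), and those at 37 C were 47.5 (wild type), 113 (labelled rnt1d) and 86.1 (labelled rnt1ts). NDI1 differed in that its wild type array at 37 C was the lowest and rnt1ts at 26 C the highest. Over 2-fold higher than wild type at 37 C were SDH2 (1.33), SDH4 (1.14), NDE1 (1.08) and NDI1 (1.03), against 2.58% of all probe sets. The members below 0 were COX5B, SDH1, CYC7 and ATP16, at -0.49, -0.32, -0.09 and -0.05. By complex the medians were 1.04 in complex II, 0.79 in complex III, 0.66 in complex IV and 0.51 in complex V. This array held the highest signal of the 8 for 15 members, again without a share of all probe sets to set beside it.

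On the array labelled rnt1ts, where RNT1 was not above background, 27 of the 39 members were below wild type at 37 C (49.5% of all probe sets) with a median log2 difference of -0.28. By complex the medians were -0.40 in complex V, -0.30 in complex IV, -0.21 in complex III and -0.17 in complex II, and 0.77 over the cytochrome c genes. ATP16 (-1.19) and COX5B (-1.14) were over 2-fold lower (3.32% of all probe sets), and CYC1 (1.22) and RIP1 (1.14) over 2-fold higher (3.59%). All 12 members that fell in rnt1d at 26 C were below wild type here, with log2 differences from -1.19 to -0.04. Their signal was 0.754 to 1.18 times the rnt1d mean at 26 C. On the array labelled rnt1d at 37 C, 10 of the 12 were above wild type at 37 C, and their signal was 0.512 to 1.48 times the wild type mean at 26 C.

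**Figure D4:**
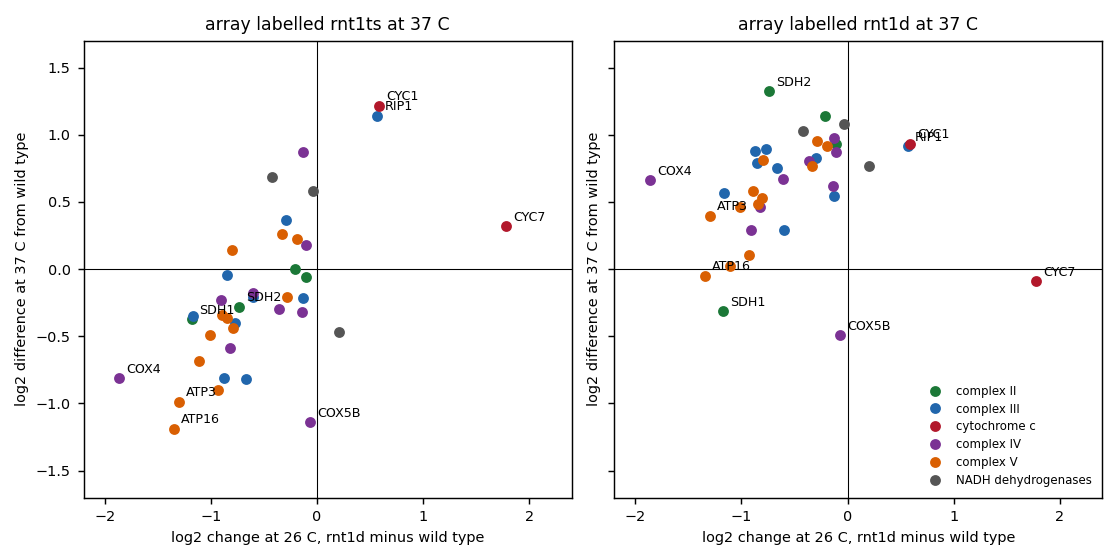
Log2 difference of each member in rnt1d from wild type at 26 C (horizontal axes) against its difference from wild type at 37 C (vertical axes), on the array labelled rnt1ts in one panel and labelled rnt1d in the other. The 12 genes that fell in rnt1d at 26 C all lie below 0 under the rnt1ts label, and 10 of the 12 lie above 0 under the rnt1d label.

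Across the 39 genes, the differences of rnt1d from wild type at 26 C and of the array labelled rnt1ts from wild type at 37 C, which share no array, had a Pearson r of 0.63 and a Spearman rho of 0.64. Over all 5656 genes the values were 0.75 and 0.64. For the array labelled rnt1d they were 0.15 and 0.46 over the 39 genes and 0.54 and 0.46 over all genes. Genes are not independent replicates, so no p is given. The mean of both mutant arrays against wild type at 37 C, which does not depend on the labels, gave 0 of 39 calls (limma, 10 at an unadjusted p under 0.05, 0.992% of all probe sets called). With the control term 5 members were higher there: COX12, RIP1, CYC1, NDI1 and NDE1, by 0.83 to 1.08 on the log2 scale (2.81% of all probe sets higher). The change of the mutant difference between 37 C and 26 C also gave 0 of 39, with 6 at an unadjusted p under 0.05 and 0% of all probe sets called.

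Genes that serve the chain without being nuclear subunits of it were followed in rnt1d at 26 C as well. Over all 9275 probe sets 1.95% were called lower and 3.54% higher in that comparison, the shares to set beside each list. In lists this short, 0 or 1 call says little about the list. Of 9 regulators, 0 were called in either direction by limma, with 1 at an unadjusted p under 0.05 and a median log2 change of 0.15. HAP4, the activating subunit of the Hap complex, was at 0.55 (limma adjusted p = 0.111), HAP5 at 0.37 and HAP1 at -0.35. Of 22 genes for complex IV assembly, 0 fell and 2 rose. COX15, which makes heme A, read 569 and 432 on the wild type arrays and 1676 and 1462 on the rnt1d arrays (log2 change 1.63, limma adjusted p = 0.0121), and PET117 rose by 1.27 (adjusted p = 0.0319). Of 11 assembly genes of complex III and cytochrome c, 1 rose and 0 fell: CYC3, the lyase that attaches heme to cytochrome c, at 1.10 (limma adjusted p = 0.0156).

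Of 13 genes for complex V assembly and inhibition, 1 fell and 0 rose. INH1, whose product blocks ATP hydrolysis by complex V, read 231 and 286 on the wild type arrays and 34.9 and 86.4 on the rnt1d arrays (log2 change -1.92, limma adjusted p = 0.0383). At 37 C INH1 read 507 on the array labelled rnt1d and 35.8 on the one labelled rnt1ts. Of 6 genes for complex II assembly and its paralogs, 0 were called (3 at an unadjusted p under 0.05), with SDH5, which adds the flavin to SDH1, at 0.73. Of 8 measured ubiquinone synthesis genes 0 were called (2 at an unadjusted p under 0.05), and COQ6 just missed at 0.77 (limma adjusted p = 0.0508). Among 8 heme synthesis genes only HEM14 was called, higher by 0.95 (limma adjusted p = 0.0418).

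Carriers and redox partners of the chain split both ways, with 2 of 10 lower and 2 higher. The phosphate carrier gene MIR1 and the porin gene POR1 fell, with log2 changes of -0.84 and -0.84 (limma adjusted p = 0.0391 and 0.0415). CYB2 and DLD1, whose products pass electrons from lactate to cytochrome c, rose by 1.98 and 0.99 (limma adjusted p = 0.0121 and 0.0257). Of 7 TCA cycle genes after citrate, KGD2, a subunit of 2-oxoglutarate dehydrogenase, fell (-0.95, limma adjusted p = 0.0379) and 0 rose. Among the called nuclear genes of these lists CYB2 alone was also called on the deposited scale, and with any 1 of the 4 replicated arrays left out these genes were called in at most 1 of the 4 fits.

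Of 8 mitochondrially encoded genes, 6 fell and 0 rose. The other 2 were dim in wild type at 26 C, COX2 at 8.31 and 5.92 and VAR1 at 0.243 and 13.7. COX2 was above background on neither of these wild type arrays and VAR1 on replicate 2 only, so a fall could hardly have shown. OLI1, ATP6, COX1 and COB, which encode partner subunits of complexes V, IV and III, fell at least 307-fold, 74.2-fold, 157-fold and 3.54-fold, with neither rnt1d array above background (limma adjusted p = 7.51e-05, 0.000151, 0.000151 and 0.00855). Of 2 OLI1 probe sets 1 was called, and all 3 for COX1 and both for COB were. With 1 of the 4 replicated arrays left out, OLI1, ATP6 and COX1 were called in all 4 fits, COB in 1, and COX3 and ATP8 in 0. ATP8 was also not called on the deposited scale (limma adjusted p = 0.199). On the array labelled rnt1d at 37 C OLI1, ATP6 and COX1 read 2100.1, 595 and 112, and on the array labelled rnt1ts none of these 3 was above background. Wild type at 37 C read 2254, 560 and 1654 for them, so COX1 alone was far below wild type under the rnt1d label (log2 difference -3.71). At 26 C COX1 read 196 on the 1 rnt1ts array, against 1212 and 1288 in wild type (log2 difference -2.58). Every nuclear partner of complexes II to V was above background on both rnt1d arrays.

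**Figure D5:**
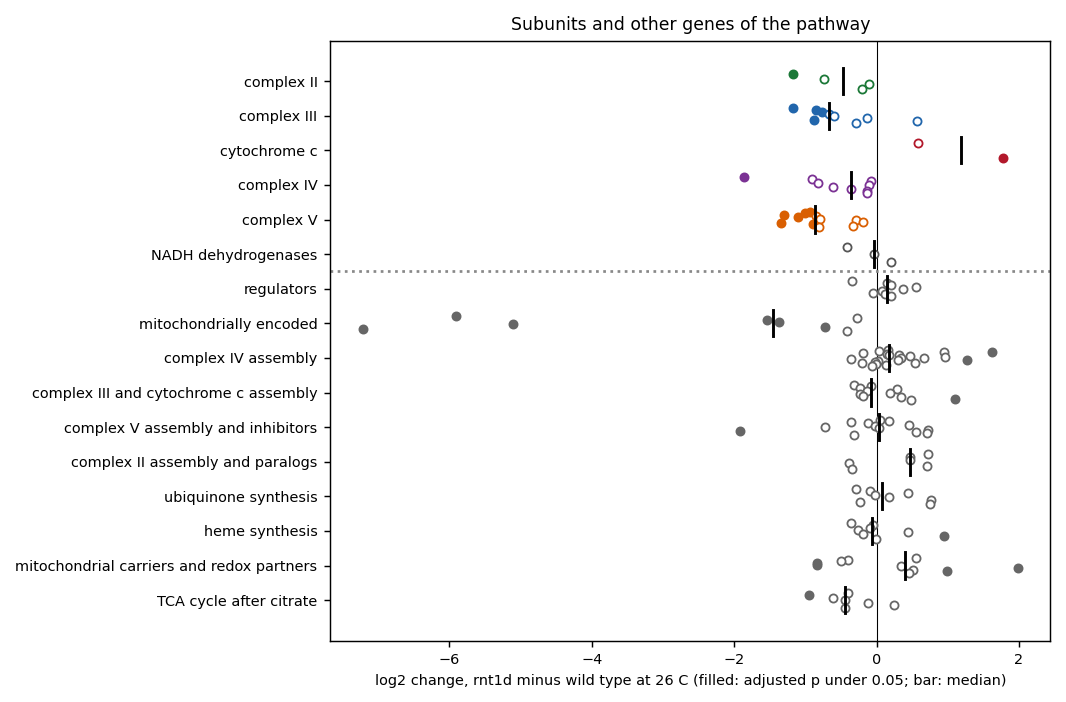
Log2 change in rnt1d against wild type at 26 C for the genes of each complex and of each further list, 1 point per gene, with the list's median as a bar. Complex V and complex III lie mostly below 0 with medians of -0.87 and -0.67, the mitochondrially encoded genes reach the lowest values, and the medians of the regulators and of complex IV assembly are 0.15 and 0.17.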

How the data were processed

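RNA from 8 samples was hybridised to 8 Affymetrix arrays. Each deposited table holds 1 linear intensity per probe set, computed with MAS5 according to the submitters' processing notes, whose version and scaling target are not stated. No genome build is named. These intensities do not go below 0, so ratios of dim signals carry little.

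The members and the gene lists were chosen with earlier results of these data known. Signals of all 9335 probe sets were quantile-normalised between arrays and tested as log2(signal + 16) with limma 3.58.1 in R 4.3.3. The fit had 6 group means, a variance trend and 2 residual degrees of freedom, from the pair of groups with 2 arrays, and single arrays are taken to have the same spread. Tests were two-sided with Benjamini-Hochberg adjustment over the 9275 probe sets that are not controls, and called at 0.05. The steps were tested on simulated data, with changes placed in rnt1d at 26 C on probe sets at or above the median mean signal. Of 100 changes of log2 size 1, 20 were recovered, and of 100 of size 2, 89 were. A gene that did not pass is therefore not shown to be unchanged. The number of arrays limits the precision. Folds are on the log2(signal + 16) scale and understate changes of dim genes.

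A probe set was not above background at or under the highest of 19 non-yeast controls on its array (3.48 to 10.7). Where a whole group was, a fold is at least the brighter mean over that bound. Gene names come from the platform annotation, and all 39 members matched the R64 gene table. RNT1, all members, full values for called members and isoform pairs, and up to 4 called genes per list (or 3 by smallest p) were named. Same-numbered arrays deviated together (r = 0.403 over 4638 probe sets), with 2 pairs only. Alternatives covered scaling, pseudocount, filters, probe sets, the variance model, arrays left out, a replicate block and the control term. The block and the control term each leave 1 residual degree of freedom. They gave the same counts over all probe sets for rnt1d against wild type at 26 C, so they are not separate checks there. Promoter and protein sequences were not analysed here.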

Additional observations from a re-analysis of the deposited data

Results flagged for a closer look

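10 of the 12 members that fell in rnt1d at 26 C were lower than wild type on both rnt1d arrays there and higher than wild type on the array labelled rnt1d at 37 C. The log2 differences on that array were 0.66 for COX4, 0.56 for COR1, 0.79 for QCR2, 0.89 for QCR6 and 0.88 for QCR10. For the complex V genes they were 0.10 for ATP1, 0.46 for ATP2, 0.40 for ATP3, 0.027 for ATP5 and 0.58 for ATP17. The opposite signs were not tested, since 1 array stands for each label at 37 C. They also depend on the reference, as the wild type array at 37 C was itself below wild type at 26 C for all 12 (median log2 difference -0.55). Set against the wild type mean at 26 C, the 12 signals on the array labelled rnt1d at 37 C were 0.512 to 1.48 times as high. RNT1 read 1.31 and 2.03 on the rnt1d arrays at 26 C and 71.4 on the array labelled rnt1d at 37 C.

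For rnt1ts, 25 members were higher than wild type at 26 C and lower than wild type at 37 C under the same label, again on 1 array each and not tested. RNT1 read 39.8 on the first of these arrays and 1.26 on the second. Of the 39 members 37 were above wild type at 26 C and 27 below it at 37 C, and 25 is the fewest that these counts allow.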

How the results depend on the processing

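The 13 calls of rnt1d against wild type at 26 C became 0 on the deposited scale and 24 with the replicate block or the control term, and ran from 0 to 6 with 1 replicated array left out. The 9 calls against rnt1ts became 0 on the deposited scale, 20 with the filter at the 25th or the 50th percentile, 21 with the replicate block and 20 with the control term, and ran from 0 to 1 with an array left out. For the mean of both mutant arrays against wild type at 37 C the 0 became 1 with either filter and 5 with the replicate block or the control term, and stayed at 0 (lowest 0, highest 0) with an array left out. The other tested counts (rnt1ts, wild type at 37 C, the change between temperatures) were 0 in every setting run. The counts of members below wild type at 37 C ran within 1.5 times of 4 and 27 under every scaling and pseudocount. Without the 2 mutant arrays at 37 C, added after the values were seen, rnt1d against wild type gave 14 calls and against rnt1ts 9.

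The members whose sign turned were not called: on the deposited scale COX5B (0.20) and SDH3 (0.16). With 1 replicated array left out, the log2 change in rnt1d at 26 C ran from -0.45 to 0.31 for COX5B, from -0.28 to 0.014 for COX12, from -0.28 to 0.023 for QCR9, from -0.50 to 0.077 for SDH4, from -0.14 to 0.069 for NDE1 and from -0.17 to 0.58 for NDE2. Over all probe sets the rnt1d comparison called 181 lower and 328 higher, 31 and 69 on the deposited scale (where the median of all was 0.12), 336 and 228 after median scaling, and 641 and 784 with the block. With 1 replicated array left out these counts ran from 10 to 92 lower and from 23 to 149 higher. Over all probe sets rnt1d against rnt1ts at 26 C called 71 lower and 75 higher, and 291 and 353 with the block. With the 25th percentile filter it called 163 and 217 of 6956, and with the 50th 138 and 189 of 4638. The mean of both mutant arrays against wild type at 37 C called 31 and 61. That rose to 347 and 261 with the block or the control term, and to 83 and 121 or 100 and 134 with the filters. The filters on dim probe sets removed NDE2. The cause of these changes was not tested. Signal over background limits NDE2, the mitochondrially encoded genes in rnt1d, and COX2 and VAR1 in wild type at 26 C as well.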
